A study of Mus musculus with 6 samples.

Results

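The genes described here encode the Nrf2 pathway and the enzymes that handle glutathione, oxidants and NADPH in mouse myoblasts, which divide and later fuse into muscle fibres. They were chosen by gene symbol, and 39 of the 44 genes on the list were measured by at least 1 probe set annotated to a single gene, 77 probe sets in all, among 18194 genes measured by 34945 such probe sets. Myoblasts of the hindlimb, taken from male mice of the strain C57BL/6JRj aged 9 to 15 weeks, were cultured on fibronectin (3 samples) or on collagen I (3 samples) until 72 hours, and the labels name no genetic change or drug in either group. Both groups were kept in Ham's F-10 with 20% fetal bovine serum and 2.5 ng/ml basic fibroblast growth factor, a medium that keeps myoblasts dividing. Whether the 3 samples of a coating are separate cultures or animals, and whether animals were pooled, is not in the labels, so p-values reflect only the spread among these samples, possibly a technical one.

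Nrf2, encoded by Nfe2l2, is a transcription factor that Keap1 holds in the cytoplasm and delivers to a ubiquitin ligase for breakdown. Oxidants and electrophiles modify Keap1, after which Nrf2 accumulates, pairs with a small Maf protein and binds the antioxidant response element in front of genes for glutathione synthesis, glutathione conjugation, quinone reduction and heme breakdown. Glutathione serves as the electron donor of glutathione peroxidases and as the molecule that transferases attach to electrophiles, and NADPH keeps both glutathione and thioredoxin reduced. In skeletal muscle these systems buffer the oxidants made by mitochondria and by contraction.

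The promoter windows of the RefSeq table (GRCm38.p6, 250 bases before to 50 bases after each start site) were searched on both strands for the core letters TGACNNNGC. Of the 44 genes 37 had a window, and Gclc, Gsr, Gsta4, Prdx6, Sod3, Hmox1 and Abcc1 had none. The core was found in 12 of the 37, or 32.4%, against 14% of all 27025 genes with a window. A match describes letters in the window, not a bound site, and a missing match says only that these letters are not in it. The 250 bases before the start site are shown for Gsta3 and Mgst1, the genes with a match whose signals fell most on fibronectin, with the core in capitals, which reads in the direction of the gene in Gsta3 and on the opposite strand in Mgst1.
Gsta3, chr1:21240335-21240584, plus strand: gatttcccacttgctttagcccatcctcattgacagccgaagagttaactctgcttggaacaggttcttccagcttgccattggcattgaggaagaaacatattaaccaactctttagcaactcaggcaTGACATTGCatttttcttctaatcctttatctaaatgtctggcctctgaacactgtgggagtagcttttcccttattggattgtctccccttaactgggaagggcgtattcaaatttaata
Mgst1, chr6:138140277-138140526, plus strand: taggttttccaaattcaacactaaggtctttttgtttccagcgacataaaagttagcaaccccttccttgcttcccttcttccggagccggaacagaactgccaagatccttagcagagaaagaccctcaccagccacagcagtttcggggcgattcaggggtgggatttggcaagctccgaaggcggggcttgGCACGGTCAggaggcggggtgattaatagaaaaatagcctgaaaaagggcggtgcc

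The matches of the other genes that were lower on fibronectin, Gclm, Srxn1 and Pgd, are shown with 10 bases on each side, and below them those of Nfe2l2, Txnrd1 and Me1, which did not pass the test on their brightest probe set. Counted from the start site, with 1 as the first transcribed base, the core begins at position -134 in Gclm, 29 in Srxn1 and 4 in Pgd. Those of Gclm, Srxn1 and Txnrd1 lie on the opposite strand. The Me1 match also holds TGACTCA, the letters of an AP-1 site.
Gclm, chr3:122245413-122245441, plus strand: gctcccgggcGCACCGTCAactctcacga
Srxn1, chr2:152105542-152105570, plus strand: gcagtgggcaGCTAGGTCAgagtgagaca
Pgd, chr4:149166061-149166089, minus strand: atttcagagcTGACATTGCactgatcgga
Nfe2l2, chr2:75704885-75704913, minus strand: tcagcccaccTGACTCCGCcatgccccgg
Txnrd1, chr10:82859104-82859132, plus strand: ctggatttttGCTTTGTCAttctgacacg
Me1, chr9:86695902-86695930, minus strand: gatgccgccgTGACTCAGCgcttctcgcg

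The core was present in 5 of 15 genes that were lower on fibronectin and had a window (33.3%), and in 5 of 17 that were tested without passing (29.4%). The core was thus about as frequent among members that fell as among members that did not pass. With groups this small, and no window for the lower genes Gclc, Gsta4 and Hmox1, the comparison cannot decide whether the shares differ.

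Sample medians of the log2 signal over all probe sets lay between 2.30 and 2.34 on fibronectin and between 2.35 and 2.39 on collagen. A gene was represented by its brightest probe set and tested where its mean signal reached 2.33, the median over all probe sets. Of the 9 markers of myoblasts 7 were bright enough to be tested, and Chrd and Msc lay below the filter. The list had a summed linear signal of 2738 to 2857 on fibronectin and 2696 to 2825 on collagen. Vcam1 and Cdh15 were higher (log2 changes 0.31 and 0.24), Des was lower (-0.23), and Pax7, Myf5, Myod1 and Itga7 did not pass. Markers of differentiating muscle passed as lower in 8 of 8 tested genes, against 20.2% of all genes tested, and Ckm lay below the filter. Their sums were 285 to 343 on fibronectin and 612 to 640 on collagen. All 8 endothelial markers lay below the brightness filter. Of the 9 blood cell markers 6 lay below it, including the defining Ptprc and Adgre1. Yet Cd68 and Cd14 were lower on fibronectin, at log2 changes of -1.28 and -0.46. Csf1r did not pass, at -0.03 (limma adjusted p = 0.821). The blood cell list summed to 43.1 to 48.1 on fibronectin and 60.2 to 68.4 on collagen. Fibroblast markers summed to 735 to 787 on fibronectin and 624 to 687 on collagen, with Col3a1 higher (0.21), Thy1 lower (-0.32) and 6 of 8 below the filter, including Pdgfra and Col1a1. Adipocyte markers summed to 303 to 320 on fibronectin and 231 to 247 on collagen, with Lpl higher (0.59), Fabp4 lower (-2.10) and the defining Adipoq below the filter. Pericyte and smooth muscle markers summed to 1318 to 1387 on fibronectin and 1468 to 1526 on collagen, with Rgs5 lower (-1.24), Acta2 higher (0.21) and Myh11 below the filter. Notch3 (0.12) and Cspg4 (-0.35) did not pass. Schwann cell markers summed to 413 to 444 on fibronectin and 475 to 494 on collagen, with Ncam1 lower (-0.16) and Sox10 not past the test. S100b and Mbp lay below the filter. The fibroblast, adipocyte, Schwann cell and smooth muscle sums came mostly from 1 gene each, Col3a1, Lpl, Ncam1 and Acta2. Their log2 means on fibronectin were 9.54, 8.21, 8.71 and 10.06. These sums therefore do not measure the share of such cells. The blood cell sum, which was lower through Cd68 and Cd14, does not measure such a share either. The part of any of these markers in the antioxidant results was not tested. In cultured cells measured in bulk, fewer cells of a kind and less RNA per cell cannot be told apart.

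On fibronectin the signals of many antioxidant genes were lower than on collagen, among them several glutathione transferases, Hmox1 and Blvrb, whereas the mRNAs of Nrf2 and Keap1 did not pass the test. Of 37 tested members 18 fell and 1 rose by limma at an adjusted p of 0.05, while 18 did not pass, so 51.4% of the members passed, against a background of 40.1% of all 10941 genes tested. Among the members 48.6% were lower and 2.7% were higher, against 20.2% and 19.9% of all genes. The estimated change was below 0 in 33 of the 37 members (89.2%), compared with 49.3% of all genes. The median log2 change was -0.13 for the members and 0.00 for all genes. The members were chosen with earlier results of these data known, so these comparisons with all genes are descriptions. Falls of at least 1.5-fold were found for 5 members, namely Gsta3, Hmox1, Mgst1, Gstm1 and Gpx3, and the samples of the 2 coatings did not overlap in 21 members that were lower and 1 that was higher (25.9% and 27.4% of all genes). When each sample was centred on its median, the split over all genes became 1646 lower and 2973 higher, in place of 2211 and 2173, and 14 members were lower and 1 was higher, the calls on Gclc, Gstp1, Pgd and Cbr1 being lost. With this centring the estimates of Nfe2l2, Keap1, Gsto1, Mgst3, Txnrd1, Tkt and Abcc1, near 0 before, lay above 0, at 0.02 to 0.05. The median log2 change was then -0.07 for the members and 0.06 for all genes. The share of members below 0 thus depends on the centring.

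**Figure D1:**
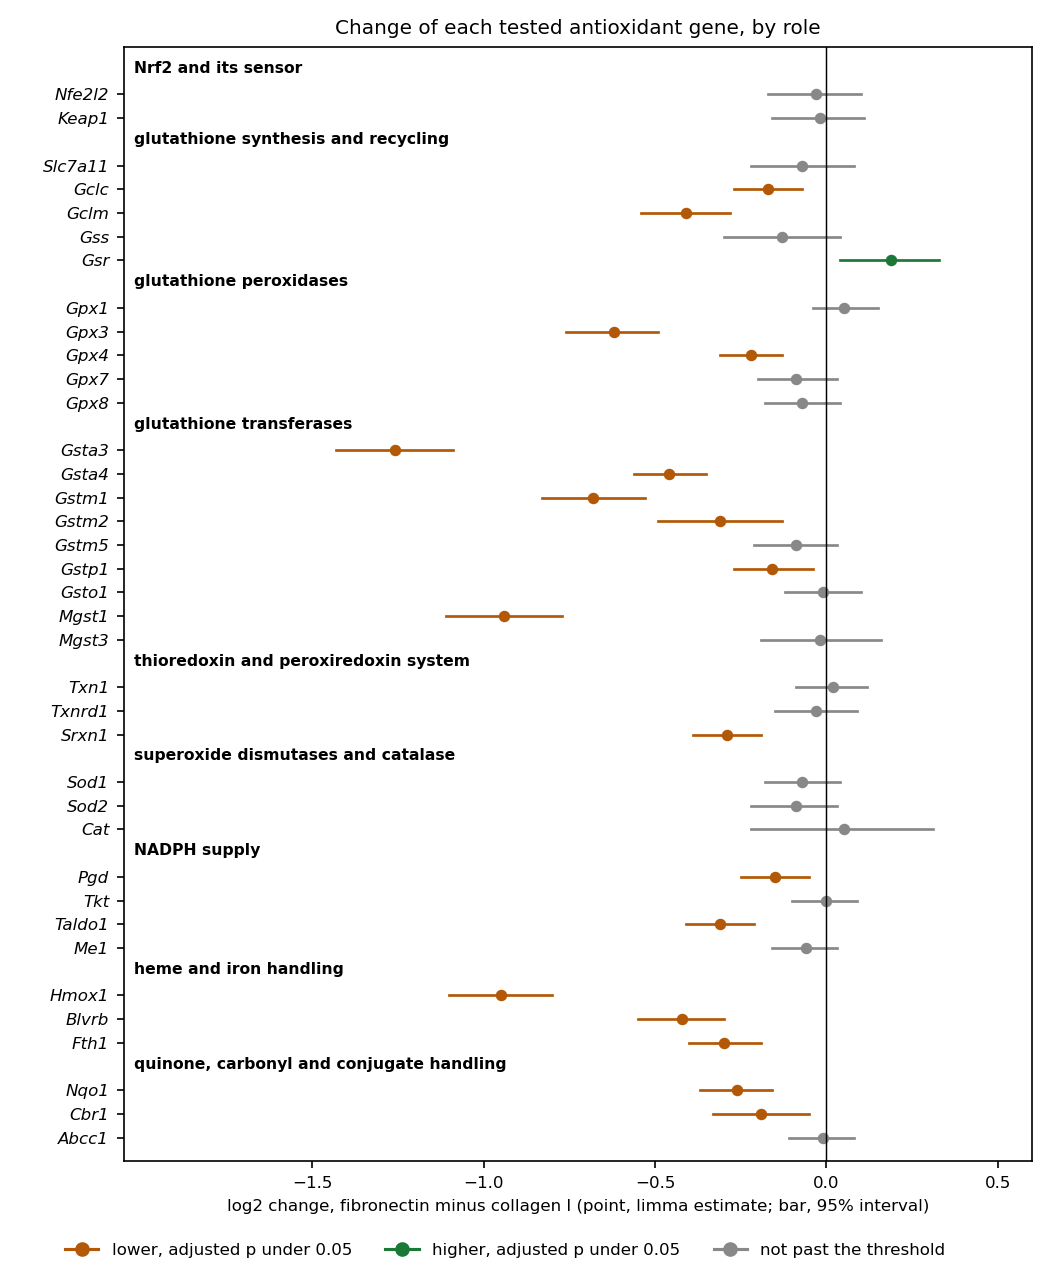
Log2 change on fibronectin minus collagen I for the 37 tested genes, grouped by role, with the limma estimate as a point and its 95% interval as a bar. The 18 lower genes reach from -0.15 to -1.26, Gsr at 0.19 is the single higher gene, and Nfe2l2 and Keap1 lie close to 0.

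Nfe2l2 and Keap1, the factor and its sensor, had nearly equal signals on both coatings. Nfe2l2 had log2 signals of 8.82, 8.83 and 8.97 on fibronectin, against 8.83, 8.95 and 8.94 on collagen. Its log2 change was -0.03, with a 95% interval from -0.17 to 0.10 (limma adjusted p = 0.688). Keap1 gave 6.56, 6.59 and 6.61 on fibronectin and 6.69, 6.49 and 6.66 on collagen. The groups overlapped in both genes, and the interval for Keap1 ran from -0.16 to 0.11 (adjusted p = 0.774). A second, dimmer probe set of each gene did not pass either, at 0.09 and 0.11. These are mRNA signals, and the amount of Nrf2 protein, which Keap1 controls, was not measured.

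Among genes of glutathione synthesis, both subunits of the glutamate-cysteine ligase fell, the modifier Gclm more than the catalytic Gclc. Gclm had log2 signals of 8.74, 8.59 and 8.64 on fibronectin, against 9.04, 9.03 and 9.14 on collagen, with no overlap. Its log2 change was -0.41 (SE 0.06, adjusted p = 0.00096), and its second probe set gave -0.47. Gclc, which carries the active site of the first and limiting step of synthesis, changed by -0.17 (SE 0.04, adjusted p = 0.0142). Every fibronectin sample of Gclc lay below every collagen sample, with means of 8.11 ± 0.03 on fibronectin and 8.29 ± 0.02 on collagen (SD, n = 3 each). The call on Gclc was lost without fibronectin replicate 2 (adjusted p = 0.0567) and without collagen replicate 2 (0.0508).

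Gss, the synthetase that adds glycine, did not pass, at a log2 change of -0.13 (interval -0.30 to 0.04). Slc7a11, the light chain of the transporter that imports cystine in exchange for glutamate, did not pass on its brightest probe set, at -0.07 (adjusted p = 0.43). Its second probe set had 2.17, 2.17 and 2.45 on fibronectin and 2.58, 2.76 and 2.78 on collagen. Its fibronectin mean of 2.26 lay below the brightness filter, so it was tested only through its collagen signal and its difference of -0.44 is given as a description. Gsr, the reductase that uses NADPH to regenerate glutathione, was the only member that rose. Its log2 signals were 7.10, 6.94 and 6.98 on fibronectin and 6.92, 6.78 and 6.76 on collagen, so the lowest fibronectin sample stood just above the highest collagen sample. The log2 change was 0.19 (SE 0.06, adjusted p = 0.047), close to the threshold. It did not pass without collagen replicate 2 (adjusted p = 0.131) or 3 (0.129), nor without fibronectin replicate 1 (0.142), 2 (0.055) or 3 (0.0829).

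The glutathione peroxidases, which reduce hydrogen peroxide or lipid peroxides, fell in 2 of 5 cases (40%, against 20.2% of all genes tested). Gpx3, the secreted enzyme found in plasma, had log2 signals of 9.99, 10.13 and 10.16 on fibronectin, against 10.78, 10.71 and 10.66 on collagen. The groups stood well apart, and the fall was 1.54-fold (log2 change -0.62, SE 0.06, adjusted p = 0.00021). Gpx4, which reduces peroxides of membrane lipids and restrains ferroptosis, averaged 9.76 ± 0.02 on fibronectin and 9.98 ± 0.01 on collagen (SD, n = 3 each), a log2 change of -0.22 (adjusted p = 0.0041). Its second probe set gave -0.24. Gpx1, the abundant cytosolic enzyme, had a change of 0.05 (interval -0.04 to 0.15), and Gpx7 and Gpx8, which act in the endoplasmic reticulum, had -0.09 and -0.07. None of these last 3 genes passed.

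Glutathione transferases held the largest fall of any member, and 6 of their 9 tested genes were lower (66.7%, against 20.2% of all genes tested). Gsta3, an alpha class transferase, had log2 signals of 3.32, 3.40 and 3.59 on fibronectin, against 4.61, 4.73 and 4.73 on collagen. This was a 2.39-fold fall (log2 change -1.26, SE 0.08, adjusted p = 2.9e-05), and the lower group still lay above the brightness filter. Its second probe set lay below the filter on both coatings and was not tested, with means of 0.74 on fibronectin and 1.41 on collagen. Gsta4, which conjugates 4-hydroxynonenal, an aldehyde of lipid peroxidation, had 9.33, 9.38 and 9.29 on fibronectin and 9.82, 9.80 and 9.75 on collagen. Its samples were tightly grouped and did not overlap, and the log2 change was -0.46 (SE 0.05, adjusted p = 0.000252).

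Mgst1, a membrane-bound transferase of microsomes and mitochondria that also reduces lipid peroxides, had the third largest fall. Its log2 signals were 7.01, 7.09 and 6.97 on fibronectin, against 7.95, 8.12 and 7.84 on collagen, a gap several times the spread within either coating. It fell 1.92-fold (log2 change -0.94, SE 0.07, adjusted p = 9.98e-05). A second probe set of Mgst1 lay far below the filter, with means of 0.56 on fibronectin and 0.51 on collagen, and averaging both reduced the change to -0.44. Mgst3, another member of the same membrane family, had a change of -0.02 (interval -0.19 to 0.16) and did not pass.

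In the mu class Gstm1 had log2 signals of 8.80, 8.97 and 9.00 on fibronectin, against 9.67, 9.61 and 9.53 on collagen. The fall was 1.60-fold (log2 change -0.68, SE 0.07, adjusted p = 0.000231). Mu class genes are close in sequence, and the brightest Gstm1 probe set is of a type whose probes can bind related transcripts, so part of its signal may belong to another mu gene. Of the Gstm1 probe sets not of that type, one gave -0.62, with 8.03, 8.14 and 8.10 on fibronectin and 8.77, 8.76 and 8.59 on collagen, and the other, which was dimmer, gave -0.25 and did not pass (adjusted p = 0.0903). Gstm2 had 5.17, 5.36 and 5.45 on fibronectin and 5.68, 5.68 and 5.55 on collagen, a log2 change of -0.31 (SE 0.08, adjusted p = 0.0142) that did not pass without collagen replicate 2 (adjusted p = 0.0516). Its fibronectin samples were spread more widely than its collagen samples, with no overlap. Gstm5 did not pass, at -0.09 (interval -0.21 to 0.03).

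Gstp1, the pi class transferase, had a change of -0.16 (SE 0.05, adjusted p = 0.0407), with means of 10.18 ± 0.01 on fibronectin and 10.33 ± 0.08 on collagen (SD, n = 3 each). This call was among the least stable, since leaving out collagen replicate 1 or 2 or any fibronectin replicate gave adjusted p between 0.0798 and 0.104. Gsto1, of the omega class, had a change of -0.01 and did not pass. Gstt1, of the theta class, averaged 1.06 ± 0.21 on fibronectin and 1.15 ± 0.19 on collagen, below the brightness filter.

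**Figure D2:**
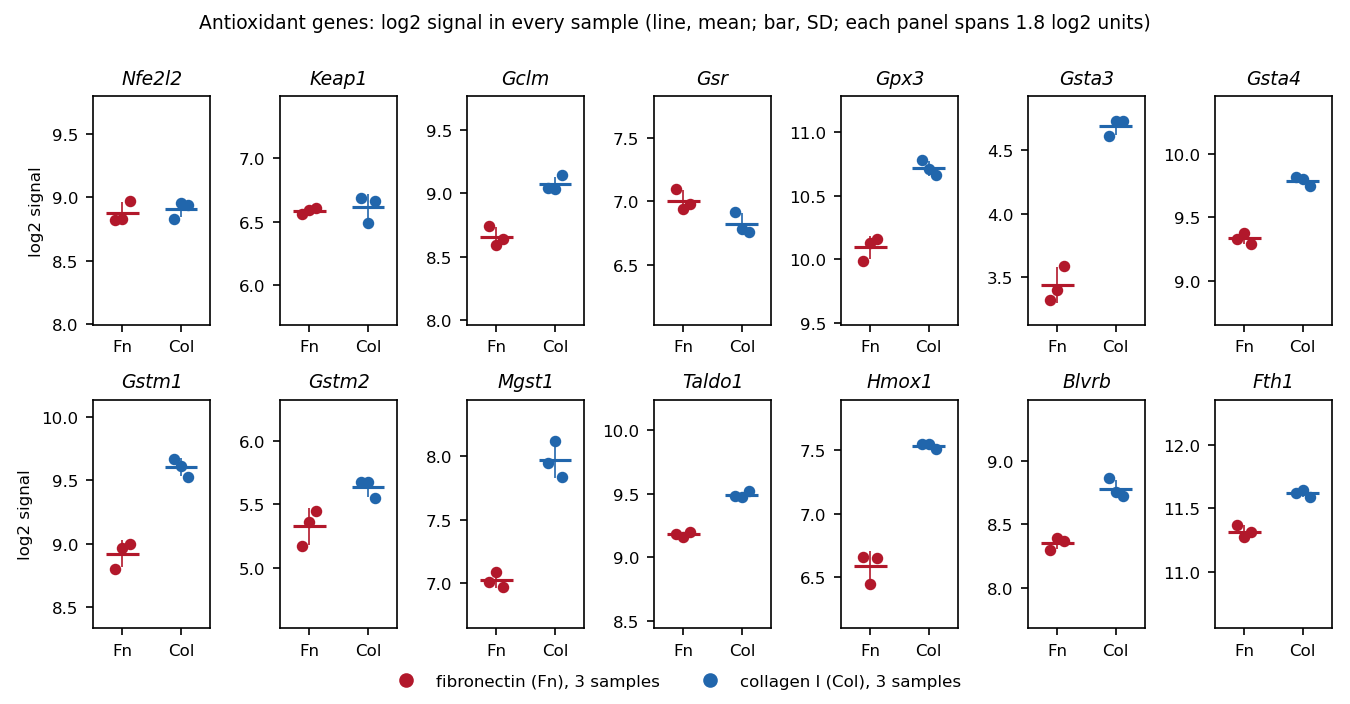
Log2 signal in every sample for Nfe2l2, Keap1, Gsr and the 11 genes whose log2 change was -0.30 or lower and passed, with fibronectin at left and collagen I at right, the mean as a line and the SD as a bar. Fibronectin and collagen points overlap for Nfe2l2 and Keap1, stand in the upper position on fibronectin for Gsr, and are separate with fibronectin below for the other genes.

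Heme and iron genes fell in all 3 measured cases (100%, against 20.2% of all genes tested). Hmox1, which opens the heme ring and releases iron and biliverdin, had log2 signals of 6.66, 6.45 and 6.65 on fibronectin, against 7.55, 7.55 and 7.51 on collagen. The collagen samples were nearly identical and all fibronectin samples lay far below them, a fall of 1.93-fold (log2 change -0.95, SE 0.06, adjusted p = 5.09e-05). Blvrb, a reductase of biliverdin and flavins, had 8.30, 8.39 and 8.37 on fibronectin and 8.86, 8.75 and 8.72 on collagen, a log2 change of -0.42 (SE 0.05, adjusted p = 0.000661). Fth1, the ferritin heavy chain, which stores iron in oxidised form, had 11.37, 11.27 and 11.31 on fibronectin and 11.62, 11.64 and 11.59 on collagen. Its log2 change of -0.30 (SE 0.05, adjusted p = 0.00181) was accompanied by -0.23 on its second probe set. The groups were separate in all 3 genes. Ftl1, the ferritin light chain, is not reported because its probe sets are annotated to several genes.

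The thioredoxin and peroxiredoxin genes were represented by 3 of 5 members. Srxn1, sulfiredoxin, which repairs overoxidised peroxiredoxins, fell by 0.29 on the log2 scale (SE 0.04, adjusted p = 0.00139), with means of 7.49 ± 0.02 on fibronectin and 7.78 ± 0.03 on collagen (SD, n = 3 each). Its other 3 probe sets gave -0.30, -0.22 and -0.25, of which the last did not pass. Txn1, cytosolic thioredoxin, had a change of 0.02 (interval -0.09 to 0.12) and did not pass.

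Txnrd1, the selenium-containing reductase of thioredoxin, gave different results by probe set. The brightest had 9.40, 9.36 and 9.49 on fibronectin, against 9.44, 9.42 and 9.50 on collagen, a change of -0.03 that did not pass (adjusted p = 0.634). The second had 5.12, 5.10 and 5.21 on fibronectin and 5.63, 5.58 and 5.51 on collagen, with no overlap, a change of -0.43 and an adjusted p of 0.00133 in the fit over all probe sets. The third, near the filter, gave -0.36. With all 3 averaged, Txnrd1 passed as lower at -0.27 (adjusted p = 0.00458). Prdx1 was left out because its probe sets are annotated to several genes, and Prdx6 was not analysed here.

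**Figure D3:**
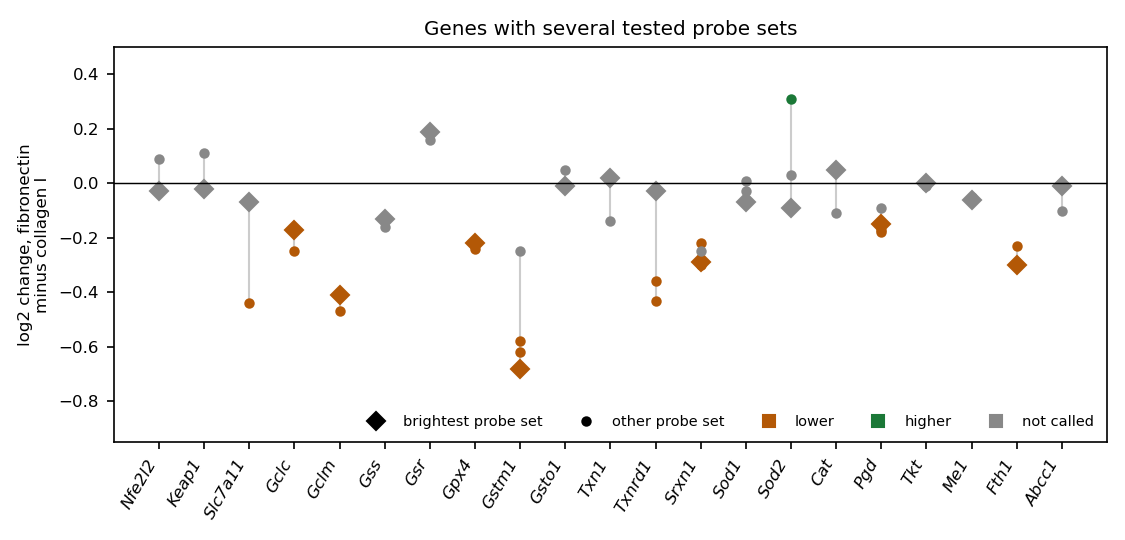
Log2 change on fibronectin minus collagen I for every tested probe set of the 21 genes with more than 1, the brightest as a diamond and the others as circles, coloured by the call of a limma fit over all probe sets, in which Gsr misses the threshold. Probe sets of Gclm, Gclc, Gpx4 and Fth1 lie close together below 0, while those of Gstm1, Txnrd1, Slc7a11 and Sod2 spread apart.

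In a fit over all 22496 probe sets past the filter, 29 of the 68 tested probe sets of members were lower and 1 was higher, against 15.8% lower and 16.2% higher over all probe sets. The lower ones include the second Slc7a11 probe set, dim on fibronectin, and the higher one was a dim probe set of Sod2, at 0.31. Calls differed among the tested probe sets of 6 genes, and no gene had probe sets called in opposite directions. Gsr, Gstp1 and Cbr1 missed the threshold in this fit, at adjusted p of 0.0668, 0.0618 and 0.0521.

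None of the superoxide dismutases or catalase passed. Sod1, the cytosolic copper and zinc enzyme, had a change of -0.07 (interval -0.18 to 0.04), and Sod2, the manganese enzyme of mitochondria, had -0.09 (interval -0.22 to 0.03). Cat, the peroxisomal catalase, had 7.29, 7.31 and 7.39 on fibronectin and 7.03, 7.54 and 7.30 on collagen. The collagen samples of Cat lay on both sides of the fibronectin samples, which left a wide interval from -0.22 to 0.31. Sod3, the extracellular enzyme, lay below the filter, at 1.41 ± 0.15 on fibronectin and 1.41 ± 0.16 on collagen (SD, n = 3 each).

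Enzymes of the pentose phosphate pathway and of NADPH supply fell in 2 of 4 measured cases (50%, against 20.2% of all genes tested). Taldo1, transaldolase of the non-oxidative branch, had log2 signals of 9.18, 9.16 and 9.20 on fibronectin, against 9.48, 9.47 and 9.52 on collagen. Both groups were tight and separate, with a change of -0.31 (SE 0.04, adjusted p = 0.000933). Pgd, which makes NADPH in the oxidative branch, averaged 10.45 ± 0.01 on fibronectin and 10.61 ± 0.04 on collagen (SD, n = 3 each), a change of -0.15 (adjusted p = 0.0238). Its call was lost without collagen replicate 2 and without each of the fibronectin replicates, at adjusted p between 0.0579 and 0.0797. The brightest Pgd probe set and the others called lower are of the type whose probes can bind related transcripts. The remaining Pgd probe set gave -0.09 and did not pass in the limma fit over all probe sets (adjusted p = 0.204). Tkt, transketolase, and Me1, cytosolic malic enzyme, had changes of 0.00 (interval -0.10 to 0.09) and -0.06 (interval -0.16 to 0.03) and did not pass. G6pdx was not analysed here.

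Of the enzymes and the pump that deal with quinones, carbonyls and conjugates, Nqo1 and Cbr1 fell. Nqo1, the quinone reductase often used as a marker of Nrf2 activity, averaged 7.37 ± 0.03 on fibronectin and 7.63 ± 0.05 on collagen (SD, n = 3 each), a log2 change of -0.26 (SE 0.05, adjusted p = 0.00318). Cbr1, a carbonyl reductase, had a change of -0.19 (adjusted p = 0.0355) and lost its call without collagen replicate 1 or 2 or fibronectin replicate 1 or 3, at adjusted p between 0.0854 and 0.108. Abcc1, which exports glutathione conjugates, had a change of -0.01 (interval -0.11 to 0.08) and did not pass. Esd was left out because its probe sets are annotated to several genes.

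Other genes of these pathways moved both ways. Of 103 tested genes on the wider lists 25 were lower and 14 higher, or 24.3% and 13.6%, against 20.2% and 19.9% of all genes tested, so the share lower was close to the background. The median log2 change was -0.04, and with samples centred on their medians 22 were lower and 22 higher. Among regulators and partners of Nrf2, 6 of 14 were lower and 2 were higher (42.9% and 14.3%). Sqstm1, an autophagy receptor that binds Keap1 and is itself an Nrf2 target, fell 1.73-fold, with 9.66, 9.62 and 9.63 on fibronectin and 10.48, 10.44 and 10.37 on collagen. Nfe2l1, a factor related to Nrf2, had a log2 change of -0.40, and Mafg, a small Maf partner, had -0.26 (adjusted p = 0.000367 and 0.00294). The other small Maf genes differed from Mafg, since Maff was higher, at 0.31 (adjusted p = 0.0121), and Mafk did not pass, at -0.05.

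**Figure D4:**
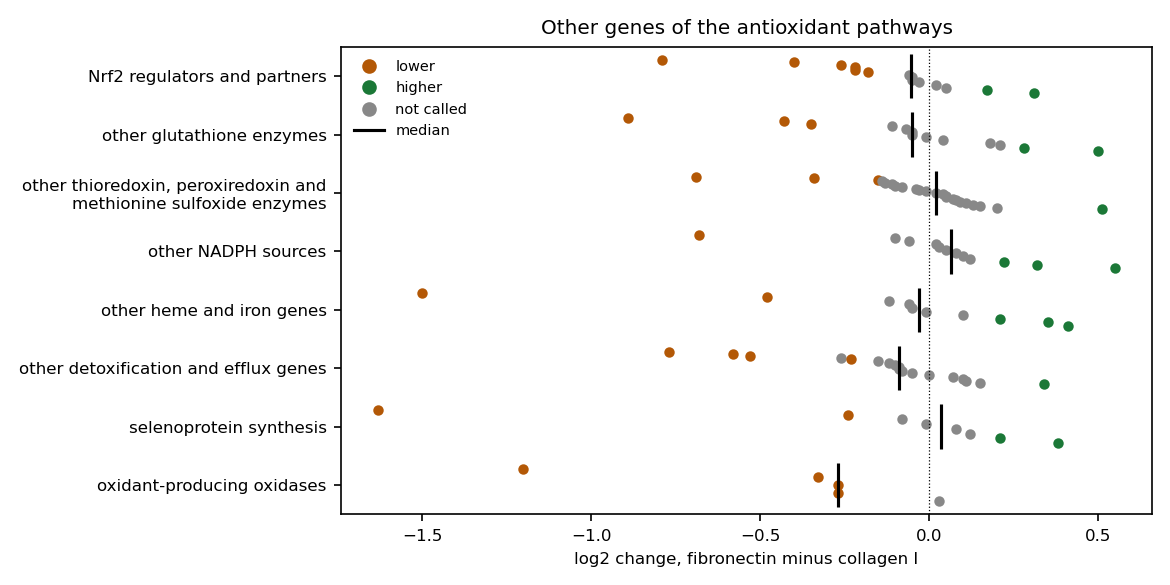
Log2 change on fibronectin minus collagen I for 103 tested genes outside the main list, each point a gene coloured by its call and each black line the median of its group. Heme and iron genes spread from -1.50 to 0.41 around a median of -0.03, and the oxidase group has the lowest median, at -0.27.

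Iron genes outside the main list showed both directions. Slc40a1, ferroportin, which exports iron from cells, had log2 signals of 3.01, 3.39 and 3.36 on fibronectin and 4.58, 4.84 and 4.84 on collagen, a 2.83-fold fall. Tfrc, the transferrin receptor, which brings iron in, had 8.40, 8.39 and 8.37 on fibronectin and 7.93, 7.94 and 8.05 on collagen, a 1.33-fold rise (adjusted p = 0.000511). Slc48a1, a heme transporter of lysosomes, fell 1.39-fold. Over the 10 tested genes of this list 2 fell and 3 rose (20% and 30%, against 20.2% and 19.9% of all genes tested). In heme breakdown Blvra, the other biliverdin reductase, was higher, at 0.21 (adjusted p = 0.00893), and Hmox2, the constitutive heme oxygenase, did not pass, at -0.12 (adjusted p = 0.0728), unlike Blvrb and Hmox1. The iron exporter and ferritin heavy chain were thus lower on fibronectin while Tfrc was higher. Aco1 of the same list also rose, at 0.35 (limma adjusted p = 0.0027). Slc11a2, Ncoa4 and Ireb2 did not pass, at -0.01, -0.06 and 0.10.

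Selenop, the selenoprotein that carries selenium between cells, had 6.04, 6.40 and 6.33 on fibronectin and 8.04, 7.93 and 7.69 on collagen, a fall of 3.09-fold (log2 change -1.63, SE 0.11, adjusted p = 5.9e-05). Scly, which frees selenium from selenocysteine, changed by -0.24, and Sephs1, a relative of the selenophosphate synthetase, by 0.38. Of the 8 tested selenium genes 2 were lower and 2 were higher (25% each), near the 20.2% and 19.9% of all genes tested.

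Of 13 other glutathione genes 3 fell and 2 rose (23.1% and 15.4%, against 20.2% and 19.9% of all genes tested). Mgst2, a microsomal transferase, fell 1.85-fold, and Hagh, which hydrolyses lactoylglutathione, fell 1.34-fold, or by 0.28 on the log2 scale with its probe sets averaged. The third, Gstm4, had a mean of 2.20 on fibronectin, below the filter, and 2.56 on collagen, so it was tested only through its collagen signal and its call does not support a fall. The counts of lower genes, here and over all wider lists, still include Gstm4. The 2 that rose were Chac1, at 0.50, and Gstk1, at 0.28 (limma adjusted p = 0.0302 and 0.0236). Of 23 other thioredoxin and sulfoxide genes 3 fell and 1 rose (13% and 4.35%), and 19 did not pass. Txnip, which binds and inhibits thioredoxin, had a change of -0.69, Osgin1 had -0.34, and Msrb3, a methionine sulfoxide reductase, had 0.51, or 0.20 with its probe sets averaged (adjusted p = 0.0405).

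Other NADPH sources fell in 1 case and rose in 3 of 12 (8.33% and 25%, against 20.2% and 19.9% of all genes tested). Idh1, the cytosolic isocitrate dehydrogenase, fell 1.61-fold, with 7.82, 7.94 and 7.92 on fibronectin and 8.51, 8.62 and 8.60 on collagen. The folate enzymes Mthfd1 and Aldh1l2 rose 1.25-fold and 1.46-fold. Thus the fall of Idh1 stood beside rises of folate enzymes within the same list.

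Of 18 other detoxification and efflux genes 4 were lower and 1 was higher (22.2% and 5.56%, against 20.2% and 19.9% of all genes tested). The conjugate exporters Abcc3 and Abcc5 had changes of -0.77 and -0.53, and the drug exporter Abcb1b had 0.34. With all probe sets averaged, Abcc5 had -0.21 and Abcb1b 0.20. Among 5 tested oxidases that produce oxidants 4 were lower and 0 were higher (80% lower, against 20.2% of all genes tested). Xdh, xanthine dehydrogenase, had 3.10, 3.33 and 3.27 on fibronectin and 4.43, 4.52 and 4.35 on collagen, a 2.30-fold fall (adjusted p = 2.85e-05), and the monoamine oxidases Maoa and Maob fell 1.21-fold and 1.25-fold. With all probe sets of a gene averaged, Maoa (adjusted p = 0.129) and the selenium gene Scly (0.0564) did not pass.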

How the data were processed

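RNA from 3 samples per coating was labelled and hybridised to an Affymetrix mouse array. The authors deposited log2 signals per probe set, made with Affymetrix Expression Console and RMA per the submitters' processing notes. RMA corrects background, normalises across arrays and compresses changes of dim probe sets. Neither versions nor scan dates were at hand, so no batch was tested; the log base is taken from the RMA label. The values were used without further scaling.

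Groups came from sample titles. Probe sets were named through the platform annotation, updated by gene identifier (18032 of 18194 genes found in the GRCm38.p6 reference), and those with several symbols (932) were not named. Each gene was represented by its brightest probe set and tested if its mean reached 2.33, which left 10941 genes. Fibronectin minus collagen was fitted with limma 3.58.1 in R 4.3.3 (lmFit and eBayes, two-sided, no covariates), adjusted by Benjamini-Hochberg over all genes tested, threshold 0.05. On simulated data the fit missed part of the 1.5-fold changes and fell short of the recovery first required, and that requirement was relaxed to 2-fold changes after this was seen. An exact permutation test of 3 against 3 samples cannot go below 0.1, so none was run. The number of arrays limits the precision, and the median SE of the members was 0.05.

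The members and lists were chosen with earlier results of these data known. Values in every sample are given for members that passed with a log2 change of at least 0.3 in size after rounding, for Nfe2l2 and Keap1 and for any higher member, and up to 3 genes of each wider list are named by smallest p. Sample values of other probe sets and of Cat, the marker genes named and the promoter matches of members that did not pass were chosen after values were seen. Further genes of the wider lists, named beside these, were also chosen after values were seen. Alternatives were other brightness filters, quantile normalisation again, centring on medians, averaged probe sets, trend and robust variance, array weights, a replicate block, a threshold of 0.01 and leaving out each sample.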

Additional observations from a re-analysis of the deposited data

How the results depend on the processing

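Of the 19 called members, 13 kept their call under every alternative run, 6 lost it in at least 1 (Gclc, Gsr, Gstm2, Gstp1, Pgd and Cbr1), and no call of a member reversed. The count of lower members, 18 as reported, lay between 13 and 18 when 1 sample was left out and between 13 and 20 under the other settings, and the median log2 change between -0.15 and -0.11 and between -0.16 and -0.07. The count of higher members, 1 as reported, was 0 without a brightness filter, 0 at a threshold of 0.01, and between 0 and 1 when 1 sample was left out. Higher genes on the wider lists, 14 as reported, numbered 9 without the filter, 22 with samples centred, 7 at a threshold of 0.01, and 10 to 14 with 1 sample left out. At 0.01, 1398 of all genes were lower and 1171 higher, against 2211 and 2173 at 0.05. Averaging probe sets added calls for Txnrd1 (-0.27) and Slc7a11 (-0.26, which includes a probe set below the filter on fibronectin) and removed those of Scly (-0.15) and Maoa (-0.23). With the filter at the 75th percentile Gsta3 and Slc7a11 were too dim to be tested. For these changes the cause was not tested, except that a stricter threshold passes fewer genes by construction. Whether the sample numbers pair the samples is not in the labels. Deviations of same-numbered samples correlated at 0.10, -0.01 and 0.08, and those of differently numbered samples at -0.14 to 0.10. With 3 samples per coating these correlations cannot settle it. With the replicate block 17 members were lower and 1 higher, and the call on Gstp1 was lost. Signals close to the brightness filter, as for Gstm4, are compressed by RMA, so the sizes of such changes are uncertain.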
